A study of Mus musculus with 16 samples.

Results

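Plagl1, Penk, Cd83, Gpr83, Capg, Ecm1 and Swap70 are 7 genes listed as strongly raised in regulatory T cells (Tregs) over conventional CD4 T cells (Tconv), with roles there that are less studied than those of the lineage genes. The 6 that could be measured were chosen by their large Treg over Tconv differences in these same arrays, so that difference is given below as values with no test. Every probe set (a group of short probes for 1 transcript) listed for these symbols was taken. That gave 8 probe sets of 45141 on the array for 6 of the 7 genes, or 6 of the 17097 genes with a probe set. Gpr83, which encodes a G protein-coupled receptor for the neuropeptide PEN, was matched to no probe set in the annotation used here and was not analysed here.

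Expression was measured on 16 Affymetrix arrays, 4 in each of 4 groups. Each array held RNA of sorted splenic CD4 T cells of NOD/LtJ mice, which were 6 weeks old and otherwise untreated. KI Treg and KI Tconv are regulatory and conventional T cells of mice with the knock-in allele Foxp3tm2Ayr, which the labels also call Foxp3gfp and which places green fluorescent protein at the Foxp3 gene itself. WT Treg and WT Tconv are the same cell types of mice with Tg(Foxp3-EGFP/cre)1aJbs, a transgene that drives a fusion of EGFP and Cre from Foxp3 regulatory sequence and leaves the endogenous gene in place. All 4 groups thus carry a Foxp3 reporter, and none is free of one. According to the protocol, all samples, Tregs included, were sorted as GFP negative, which leaves the marker used to sort the Tregs unsettled. Whether replicate arrays stand for different animals is not stated, and p-values measure only the spread between these samples, which may be technical. The number of arrays limits the precision. Foxp3 averaged 9.76 ± 0.29 in KI Tregs, 9.86 ± 0.20 in WT Tregs, 3.69 ± 0.09 in KI Tconv and 4.63 ± 0.32 in WT Tconv (log2, SD, n = 4 each), high in the arrays labelled Treg and near background in those labelled Tconv.

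Tregs are the CD4 T cells that hold immune responses in check, and their identity depends on Foxp3. The genes described here act at several levels of a cell. Plagl1 encodes a zinc finger transcription factor that can halt the cell cycle and is an imprinted gene. Penk, Ecm1 and Cd83 encode a secreted peptide precursor, a secreted matrix glycoprotein and a surface protein. Capg and Swap70 encode proteins that act on actin filaments and on Rac signalling.

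The stretches of sequence at the gene starts are shown for the 4 measured members with an entry in the RefSeq promoter table, because their transcripts share a cell type pattern. Penk and Cd83 had no entry. Each line holds 250 bases before and 50 after the gene start of RefSeq, 5′ to 3′ on the gene's strand, build GRCm38.p6. Capitals mark matches on either strand to the motifs forkhead (TGTTTAC), Runx (TGTGGTT), AP-1 (TGANTCA), CRE (TGACGTCA), GC box (GGGCGG) and TATA box (TATAAA). Swap70 lies at chr7:110221453-110221752, plus strand, Ecm1 at chr3:95739520-95739819, minus strand, Plagl1 at chr10:13090582-13090881, plus strand and Capg at chr6:72549397-72549696, plus strand.
Swap70: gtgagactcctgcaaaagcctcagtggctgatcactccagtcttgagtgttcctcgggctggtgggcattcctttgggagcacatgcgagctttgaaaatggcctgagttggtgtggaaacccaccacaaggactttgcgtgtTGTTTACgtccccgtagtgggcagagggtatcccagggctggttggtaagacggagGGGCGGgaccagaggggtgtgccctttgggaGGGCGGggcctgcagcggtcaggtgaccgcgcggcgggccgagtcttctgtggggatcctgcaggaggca
Ecm1: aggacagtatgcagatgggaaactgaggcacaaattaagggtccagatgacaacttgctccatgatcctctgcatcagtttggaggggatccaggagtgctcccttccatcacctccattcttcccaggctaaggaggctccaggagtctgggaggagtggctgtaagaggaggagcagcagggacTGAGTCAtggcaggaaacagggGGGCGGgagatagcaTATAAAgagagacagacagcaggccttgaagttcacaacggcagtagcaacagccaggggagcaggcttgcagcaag
Plagl1: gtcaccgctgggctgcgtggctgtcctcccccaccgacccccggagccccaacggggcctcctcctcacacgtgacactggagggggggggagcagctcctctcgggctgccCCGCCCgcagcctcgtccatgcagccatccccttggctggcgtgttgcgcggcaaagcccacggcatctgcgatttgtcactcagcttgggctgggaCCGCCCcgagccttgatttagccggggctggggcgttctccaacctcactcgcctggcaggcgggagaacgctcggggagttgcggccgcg
Capg: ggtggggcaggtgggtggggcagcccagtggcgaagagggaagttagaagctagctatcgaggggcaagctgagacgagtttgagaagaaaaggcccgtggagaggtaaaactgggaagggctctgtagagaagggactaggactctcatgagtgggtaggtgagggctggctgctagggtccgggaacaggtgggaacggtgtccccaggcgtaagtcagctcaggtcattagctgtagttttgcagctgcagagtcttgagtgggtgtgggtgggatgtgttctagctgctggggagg
The Swap70 window held 1 forkhead match, which 3.55% of the 27025 promoters in the table hold, and 2 GC boxes, a motif held by 35.9%. The Ecm1 window held 1 AP-1 match (held by 7.93%), 1 TATA box (14.2%) and 1 GC box. The Plagl1 window held 2 GC boxes, and the Capg window held no match. None of these 4 windows held a Runx (5.37%) or CRE (1.88%) match. No match overlapped another. For Capg and Ecm1 the table's start lies inside the RefSeq gene span. A match is a run of letters and not a site of binding, and the 4 windows had no motif in common.

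Values are log2 expression per probe set, made by the authors with RMA, a method that subtracts background, equalises the arrays and combines the probes of a set. The median of 23 control probe sets with no target was 2.60 and their highest value 4.71. Values under about 5 are therefore called near background, and a difference that reaches into that range may understate the true one. Replicates are numbered 1 to 4 in each group. Replicate 4 of each group is an array numbered 24 to 27 in the labels, while the other WT arrays are numbered 4 to 9 and the other KI arrays 13 to 23. Levels of different probe sets are not set against each other. Fewer cells of a type and less RNA per cell cannot be told apart in these bulk samples.

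Plagl1 was high in Tregs and near background in Tconv in both genotypes. Its probe set 1426208_PM_x_at read 9.44, 9.46, 9.59 and 9.11 in KI Tregs and 9.22, 9.50, 9.16 and 9.12 in WT Tregs. It read 4.55, 4.80, 4.83 and 4.05 in KI Tconv and 4.11, 4.16, 4.66 and 3.86 in WT Tconv. The Treg and Tconv ranges were far apart, all 8 Tconv values lay near background, and KI and WT overlapped in each cell type. The Treg minus Tconv difference was 4.84 in KI (28.7-fold) and 5.05 in WT (33.1-fold).

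The other Plagl1 probe set, 1450533_PM_a_at, did not show this pattern. It read 3.37, 3.55, 3.65 and 3.41 in KI Tregs and 3.36, 3.54, 3.62 and 3.65 in WT Tregs. It read 3.26, 3.46, 3.13 and 3.27 in KI Tconv and 3.15, 2.77, 3.34 and 3.18 in WT Tconv. All 16 values lay near background, and its Treg minus Tconv difference was 0.21 in KI and 0.44 in WT. In Affymetrix naming the ending x_at marks a set in which some probes also match other transcripts, so the Plagl1 pattern rests on 1 set of that kind. RefSeq places the Plagl1 gene on chromosome 10, 13090832 to 13131694 (GRCm38.p6, as for the genes below).

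Penk, the precursor of the opioid peptides Met-enkephalin and Leu-enkephalin, varied most within its Treg groups. Its probe set 1427038_PM_at read 7.50, 7.52, 7.16 and 6.52 in KI Tregs and 7.95, 7.94, 8.47 and 7.20 in WT Tregs. It read 3.84, 3.83, 4.06 and 4.03 in KI Tconv and 3.52, 3.40, 4.16 and 3.95 in WT Tconv. Replicate 4 was the lowest array in both Treg groups, at 6.52 and 7.20, and all Tconv values lay near background. The Treg minus Tconv difference was 3.24 in KI (9.45-fold) and 4.14 in WT (17.6-fold). The gene lies on chromosome 4, 4133536 to 4138815.

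Cd83 encodes an immunoglobulin-type surface protein of activated lymphocytes and mature dendritic cells, which in mouse dendritic cells keeps MHC class II and CD86 from being removed. Its probe set 1416111_PM_at read 9.87, 9.83, 9.88 and 9.76 in KI Tregs and 10.00, 10.05, 10.08 and 9.73 in WT Tregs. It read 5.93, 5.63, 5.84 and 5.69 in KI Tconv and 6.47, 5.19, 5.87 and 5.96 in WT Tconv. The KI Tregs lay within 9.76 to 9.88, the narrowest Treg group of the 6 genes, while the WT Tconv spread from 5.19 to 6.47. The Treg minus Tconv difference was 4.06 in KI (16.7-fold) and 4.09 in WT (17.0-fold). All Tconv values lay above 5, so this difference does not reach into the background range. The gene lies on chromosome 13, 43785112 to 43803133.

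Ecm1 encodes a secreted glycoprotein that in mouse Th2 cells is needed to leave lymph nodes. Its probe set 1448613_PM_at read 8.44, 8.77, 8.42 and 8.11 in KI Tregs and 8.41, 8.61, 8.36 and 8.18 in WT Tregs. It read 6.06, 6.30, 6.21 and 6.01 in KI Tconv and 6.00, 6.00, 5.87 and 6.22 in WT Tconv. Tregs and Tconv did not overlap, KI and WT overlapped in each cell type, and all values lay above 5. The Treg minus Tconv difference was 2.29 in KI (4.89-fold) and 2.37 in WT (5.16-fold). The gene lies on chromosome 3, 95734147 to 95739876.

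Capg encodes a gelsolin family protein that caps the ends of actin filaments. Its probe set 1450355_PM_a_at read 8.71, 8.62, 8.58 and 8.16 in KI Tregs and 7.94, 7.80, 8.01 and 7.73 in WT Tregs. It read 4.49, 4.69, 4.76 and 4.88 in KI Tconv and 4.78, 5.03, 4.60 and 4.93 in WT Tconv. Every KI Treg lay above every WT Treg, as in 5.12% of tested genes, with KI Treg 4 the lowest of its group, and the Tconv groups overlapped, with WT Tconv 2 (5.03) the only Tconv array above 5. The Treg minus Tconv difference was 3.81 in KI (14.04-fold) and 3.04 in WT (8.20-fold). The gene lies on chromosome 6, 72538282 to 72562983.

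Swap70 encodes a protein that binds the lipid PIP3 and Rac, first studied in B cells. Its probe set 1434225_PM_at read 8.27, 8.53, 8.23 and 7.88 in KI Tregs and 8.05, 8.11, 8.33 and 8.10 in WT Tregs. It read 5.84, 5.78, 5.87 and 5.87 in KI Tconv and 6.10, 5.96, 5.44 and 5.35 in WT Tconv. Tregs and Tconv did not overlap, and KI Treg 4, at 7.88, was the lowest Treg. The Treg minus Tconv difference was 2.39 in KI (5.22-fold) and 2.43 in WT (5.40-fold). The second set, 1423543_PM_at, ranged from 7.29 to 7.69 in KI Tregs, 7.39 to 7.53 in WT Tregs, 4.57 to 4.85 in KI Tconv and 4.56 to 5.03 in WT Tconv. Its difference was 2.77 in KI and 2.62 in WT, so both Swap70 sets stood far higher in Tregs. The gene lies on chromosome 7, 110221703 to 110283506.

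**Figure D1:**
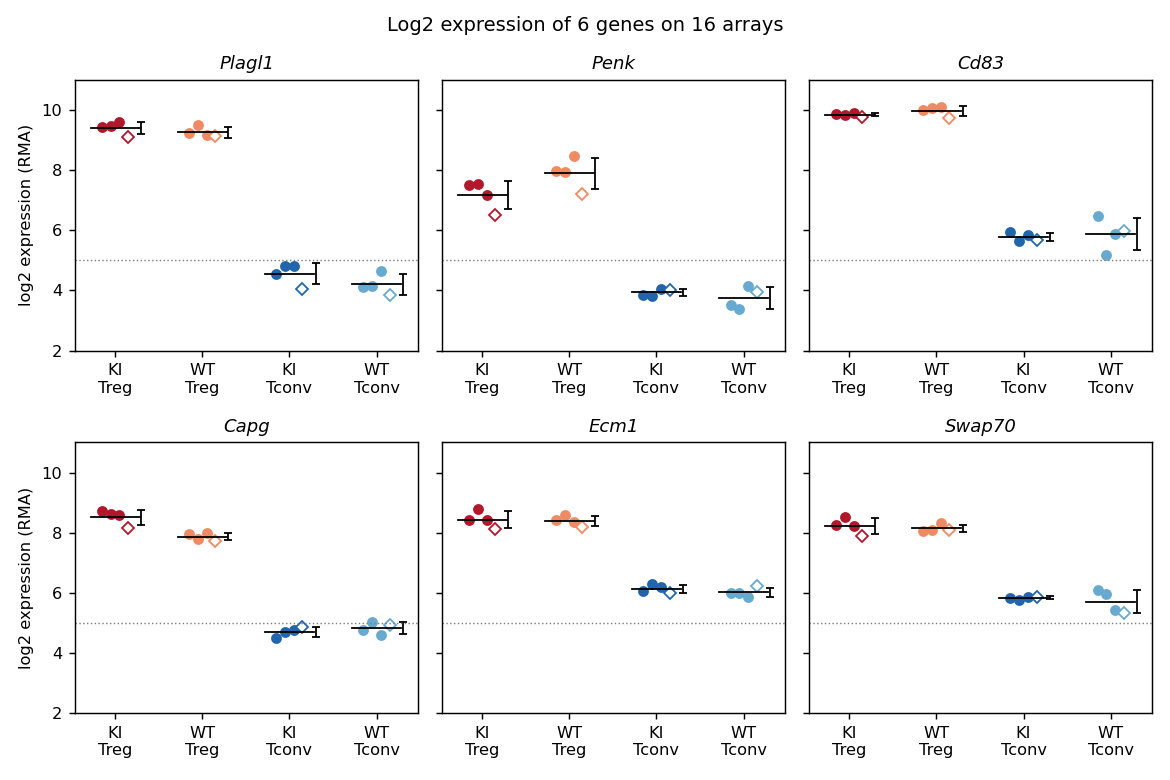
Log2 expression (RMA, vertical axis) of 6 genes in KI Tregs, WT Tregs, KI Tconv and WT Tconv, with 4 arrays a group. Circles are replicates 1 to 3, open diamonds are replicate 4 (arrays 24 to 27), the line is the mean with the SD beside it, and the dotted line marks 5; all Treg arrays lie above all Tconv arrays, and in Capg all KI Tregs lie above all WT Tregs.

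**Figure D2:**
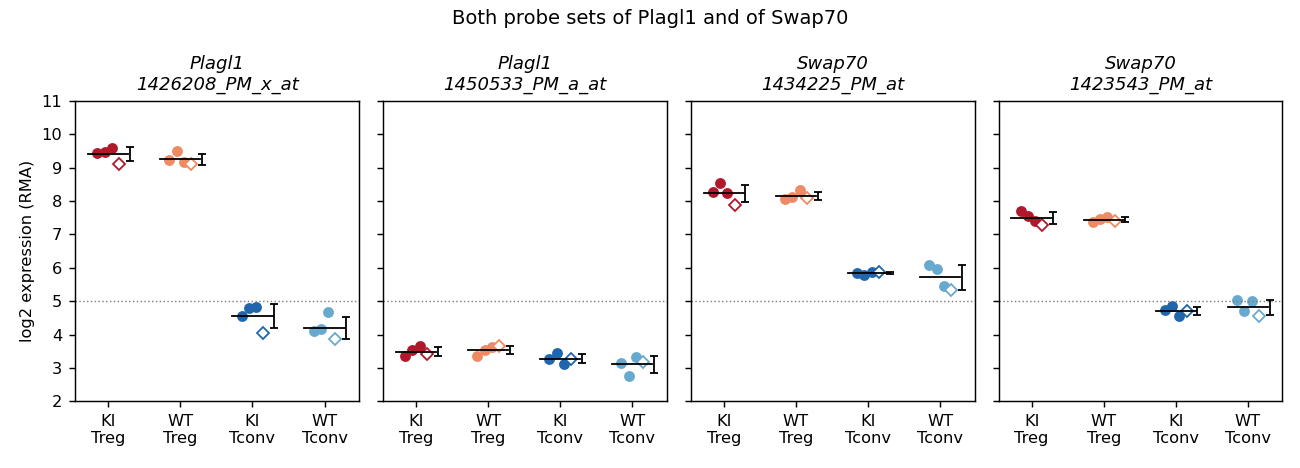
Log2 expression (RMA, vertical axis) of both probe sets of Plagl1 and of Swap70 in the 4 groups, drawn with circles for replicates 1 to 3, open diamonds for replicate 4, the mean, the SD and a dotted line at 5. The Plagl1 set 1450533_PM_a_at stays under 5 on all 16 arrays, while both Swap70 sets separate Tregs from Tconv.

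All 6 genes passed the filter on low values (above 5 on at least 4 arrays), which left 8139 genes. Plagl1, Penk and Capg passed it through the Tregs, where the pick made them high. Cd83, Ecm1 and the Swap70 set used, 1434225_PM_at, lay above 5 on all 16 arrays. In all 6 the Treg arrays lay above the Tconv arrays in both genotypes, as did those of 17.7% of tested genes in KI and 17.6% in WT. All 6 differed by at least 1.5 (log2) in both genotypes, as did 2.35% of tested genes. These counts restate the pick. Since the Tconv values of Plagl1, Penk and Capg lay near background, their differences may understate the true ones, and no order among the 6 genes is read from them. In the sets used, 3 genes lay above background in both cell types. Among them, the difference of Cd83 (4.06 in KI, 4.09 in WT) lay above those of Swap70 and Ecm1. The latter 2 differed from each other by less than the SD of their Treg arrays. The other Swap70 set, 1423543_PM_at, gave 2.77 in KI and 2.62 in WT, with Tconv values of 4.56 to 5.03 that reach into the background range. No order of Swap70 and Ecm1 is read from these values.

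**Figure D3:**
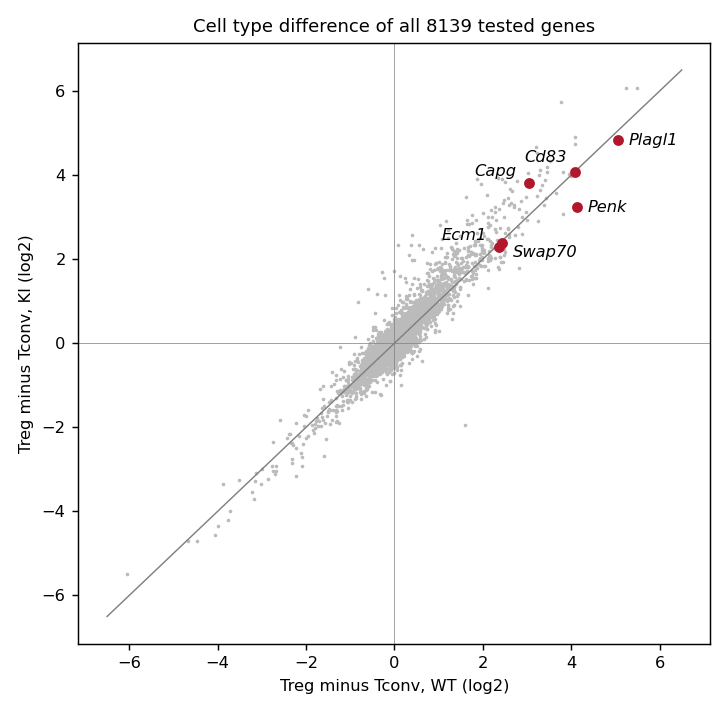
Treg minus Tconv difference in KI (vertical axis, log2) against that in WT (horizontal axis, log2) for all 8139 tested genes, with the 6 genes in red and the line of equal values. Penk lies below the line (3.24 in KI, 4.14 in WT) and Capg above it (3.81 in KI, 3.04 in WT), while the other 4 lie near it.

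The knock-in allele was compared with the transgene in each cell type on the same arrays that the pick used. The pick was made on the Treg minus Tconv difference and not on this one, but with earlier results of these data known. Apart from arrays 24 to 27, genotype and array number cannot be told apart, since the other WT arrays and the other KI arrays carry separate numbers. In Tregs, Capg rose in KI and no other of the 6 genes passed. Capg averaged 8.52 ± 0.24 in KI Tregs and 7.87 ± 0.13 in WT Tregs (SD, n = 4 each). The difference was 0.65 (SE 0.128, 95% interval 0.38 to 0.91, 1.56-fold, limma adjusted p = 0.00946). Capg was thus 1 of 6 genes called, and over all 8139 genes 2.84% were called, 1.99% as higher and 0.848% as lower. This Capg difference was known when the genes were chosen. It was 0.43 within arrays 24 to 27, with 1 array a group and no test. It was 0.72 without those arrays (adjusted p = 0.00492), a fit in which genotype and array set cannot be told apart. With the 3 sets of array numbers as a block it was 0.58 and did not pass (adjusted p = 0.392). Under that block only arrays 24 to 27 link the 2 genotypes, so the fit holds little information on this difference. The Capg difference also did not pass without KI Treg 1 (0.58, adjusted p = 0.0507).

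Penk was the lowest in KI Tregs relative to WT Tregs. It averaged 7.18 ± 0.47 in KI Tregs and 7.89 ± 0.52 in WT Tregs (SD, n = 4 each). The difference was -0.71 (SE 0.246, 95% interval -1.23 to -0.20) and did not pass over all genes (limma adjusted p = 0.139, unadjusted p = 0.00973). WT Treg 4, at 7.20, was the only WT Treg array under the highest KI Treg, at 7.52. Without WT Treg 4 the difference was -0.94 (adjusted p = 0.0456), and without arrays 24 to 27 it was -0.73 (adjusted p = 0.0496), and in the second fit genotype and array set cannot be told apart. These were the 2 of 27 alternatives with a test in which Penk passed. Over all 27 the adjusted p ran from 0.0456 to 0.679, the highest with the 3 sets of array numbers as a block (-0.75), and with 1 array left out the difference ran from -0.94 to -0.50. Within arrays 24 to 27 it was -0.68.

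The other 4 genes had small genotype differences in Tregs. These were 0.15 for Plagl1 (95% interval -0.22 to 0.52), -0.13 for Cd83 (-0.50 to 0.24), 0.05 for Ecm1 (-0.21 to 0.31) and 0.08 for Swap70 (-0.24 to 0.40). Their limma adjusted p ran from 0.697 to 0.879, and their KI and WT arrays overlapped. The median difference of the 6 genes was 0.06, against 0.04 over all tested genes. These 4 differences did not pass, which does not show that the genotypes were alike. Within arrays 24 to 27, with 1 array a group and no test, all 4 had the opposite sign. They were -0.0062 for Plagl1, 0.031 for Cd83, -0.069 for Ecm1 and -0.22 for Swap70.

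In Tconv, 0 of the 6 genes passed between KI and WT by limma, where 0.135% of all genes were called. At an unadjusted p under 0.05 there were 0 of the 6, and 480 of the 8139 tested genes. The largest difference was that of Plagl1, 4.56 ± 0.36 in KI Tconv and 4.20 ± 0.33 in WT Tconv (SD, n = 4 each). That is 0.36 higher (95% interval -0.01 to 0.73, limma adjusted p = 0.828), near background in both groups. The others ran from -0.13 for Capg to 0.18 for Penk. Their median, with Plagl1, was 0.13, against 0.01 over all genes. Of the 7 measured genes of a Treg identity list, 3 fell in KI relative to WT Tconv and 4 did not pass. Foxp3 fell by 0.93 (SE 0.154, limma adjusted p = 0.0104) in KI Tconv, with both groups near background, Ikzf2, which encodes the Ikaros family factor Helios, fell by 0.83 (SE 0.072, adjusted p = 5.8e-06) and Nrp1, the semaphorin receptor neuropilin, fell by 0.77 (SE 0.124, adjusted p = 0.00807). Ikzf2 and Nrp1 were named after their values were seen. The 4 that did not pass were Il2ra (-0.10), Ctla4 (-0.19), Tnfrsf18 (-0.03) and Ikzf4 (-0.35). The part of such transcripts of Tconv samples in the values of the 6 genes was not tested.

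The genotype difference in Tregs less that in Tconv equals the Treg minus Tconv difference in KI less that in WT, which are the values the genes were picked on. It is therefore given as a description. It was 0.78 for Capg and -0.89 for Penk, and from -0.21 for Plagl1 to -0.03 for Cd83 in the other 4 genes. The Tconv values of Plagl1 and Penk, and all but 1 of Capg, lay near background. By limma 0 of the 6 genes passed, where 0.786% of all genes were called. At an unadjusted p under 0.05 there were 2 of the 6, and 673 of the 8139 tested genes. Nothing is read from these counts.

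**Figure D4:**
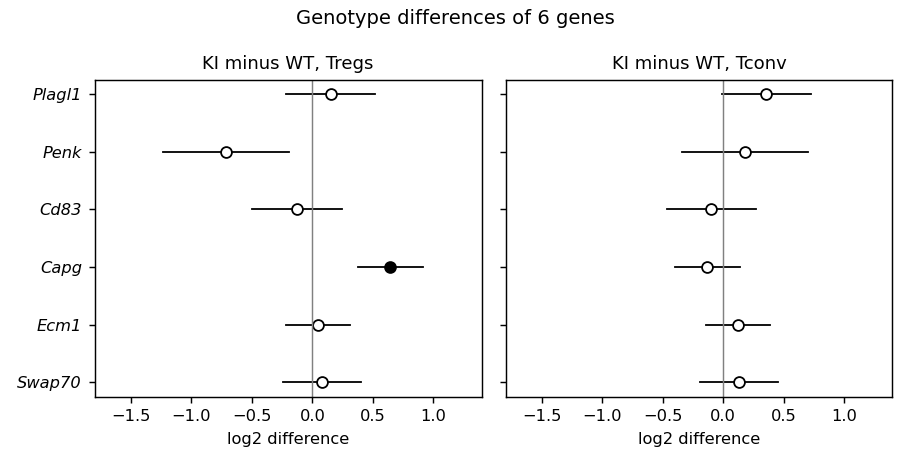
KI minus WT difference in Tregs and in Tconv (horizontal axes, log2) for 6 genes, with 95% intervals from limma. The filled circle, Capg in Tregs at 0.65, is the only plotted difference that passed an adjusted p under 0.05 over all genes.

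Replicate 4, the array numbered 24 to 27, lay low in these genes in Tregs. KI Treg 4 was the lowest KI Treg in 6 of 6 genes, and WT Treg 4 the lowest WT Treg in 5 of 6, all but Swap70. In Tconv there was no such lean. KI Tconv 4 lay below the other KI Tconv in 2 genes, above them in 2 and within them in 2, and WT Tconv 4 lay below in 2, above in 1 and within in 3. KI Treg 4 was also the lowest of its group in 45.9% of the 185 other genes that were at least 1.5 higher in Tregs in both genotypes, and in 42.7% of all tested genes. WT Treg 4 was the lowest in 37.3% of those 185 genes and in 19.2% of all tested genes. The mean of the measured T cell markers was lowest on replicate 4 in each of the 4 groups. It was 10.53 in KI Treg 4, 10.51 in WT Treg 4, 10.48 in KI Tconv 4 and 10.36 in WT Tconv 4. The mean of the Treg identity genes was lowest in KI Treg 4 (10.49) and WT Treg 4 (10.40) among their groups. The part of the array sets in the differences was not tested beyond the block fits and the values within arrays 24 to 27.

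Cd83, Capg and Swap70 are also transcripts of B cells and myeloid cells, so markers of those cells were set beside them. Of 10 monocyte and macrophage markers with a probe set, of 12 listed, 7 exceeded 5 on some array, among them Lyz2, C1qa and Adgre1. Csf1r, Fcgr1 and Itgam stayed under 5 on every array. The mean over the 10 ranged from 4.49 to 6.02 in KI Tregs, 4.66 to 6.00 in WT Tregs, 4.09 to 4.71 in KI Tconv and 4.32 to 4.92 in WT Tconv. The means of KI and WT Tregs overlapped, and those of some Tregs lay above all Tconv. Of the 5 tested, 4 rose and 0 fell in KI Tregs relative to KI Tconv, and 3 rose and 0 fell in WT. Over all tested genes 21.2% rose in KI and 16.7% in WT.

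Of 11 B cell markers with a probe set, of 12 listed, 5 exceeded 5 on some array (Ms4a1, Cd79b, Cr2, Cd22 and Blnk), while Cd79a, Pax5, Ebf1, Blk, Fcer2a and Spib stayed under 5. Their mean ranged from 4.04 to 5.20 in KI Tregs, 3.99 to 5.51 in WT Tregs, 3.96 to 4.93 in KI Tconv and 4.21 to 5.65 in WT Tconv, so the groups overlapped. Of 10 dendritic cell markers with a probe set, of 12 listed, only Irf8 and Cst3 exceeded 5, while Itgax, Flt3, Zbtb46 and Xcr1 lay near background on every array. Their mean ranged from 4.27 to 4.74 in KI Tregs and 4.19 to 4.65 in WT Tregs. It ranged from 4.11 to 4.33 in KI Tconv and 4.09 to 4.23 in WT Tconv. Irf8 and Cst3, the 2 tested, rose in Tregs relative to Tconv in both genotypes. Of 9 neutrophil markers with a probe set, of 10 listed, 7 exceeded 5 on some array, while Mmp8 and Cxcr2 stayed under 5. S100a9 ranged from 6.04 to 10.2 in KI Tregs and 3.28 to 11.1 in WT Tregs. In KI Tconv S100a9 ranged from 4.46 to 8.78 and in WT Tconv from 5.92 to 9.87. Neutrophil means ranged from 4.29 to 6.40 in KI Tregs and 3.45 to 6.46 in WT Tregs. They ranged from 3.74 to 5.74 in KI Tconv and 4.08 to 5.72 in WT Tconv. Of 5 tested B cell markers, 1 rose and 0 fell in Tregs in each genotype. Of 5 tested neutrophil markers, 0 rose and 0 fell. The 6 measured T cell markers lay above 5 on all 16 arrays, and of them 2 rose and 1 fell in Tregs relative to Tconv in each genotype. Cd4 averaged 7.50 ± 0.12 in KI Tregs, 7.25 ± 0.13 in WT Tregs, 7.99 ± 0.08 in KI Tconv and 7.96 ± 0.20 in WT Tconv (SD, n = 4 each). Of 9 CD8 T and NK cell markers with a probe set, of 9 listed, 6 exceeded 5 on some array and 5 were tested, of which 3 rose and 1 fell in Tregs in each genotype. Their mean ranged from 4.80 to 5.19 in KI Tregs, 4.68 to 5.08 in WT Tregs, 4.67 to 5.11 in KI Tconv and 4.71 to 5.02 in WT Tconv. Cd8a averaged 6.10 ± 0.27 in KI Tregs, 6.43 ± 0.22 in WT Tregs, 4.28 ± 0.29 in KI Tconv and 4.08 ± 0.29 in WT Tconv (SD, n = 4 each), and Klrd1 was lower in Tregs, while Klrb1c, Ncr1 and Klra8 stayed under 5. Jchain, a plasma cell marker, ranged from 5.21 to 8.72 in KI Tregs and 2.31 to 9.13 in WT Tregs. It ranged from 5.10 to 8.15 in KI Tconv and 5.87 to 8.62 in WT Tconv, while Tnfrsf17 stayed under 5. The erythroid gene Hba-a1 read 8.20 or higher on all 16 arrays, while Alas2 reached at most 5.98. The part of these cells in the values of the 6 genes was not tested.

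Related genes were read from lists of the pathways around each member, without the members. Over all tested genes 21.2% rose and 19.9% fell in KI Tregs relative to KI Tconv, and 16.7% rose and 17.9% fell in WT Tregs relative to WT Tconv. The lists are described by counts, and the genes given as examples of the cell type difference were named after their values were seen.

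Around Plagl1, 14 of 18 PLAG family and imprinted genes had a probe set and 2 were tested. Plagl2, a family member, rose in Tregs (0.82 in KI, 0.65 in WT), while Impact did not pass, at -0.21 in KI and -0.10 in WT. Neither passed between KI and WT Tregs (0.02 and -0.15).

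Around Penk, 4 of 17 genes of opioid peptides, processing and receptors were tested. Of these 2 rose in Tregs in both genotypes, the protease gene Ctsl (1.51 in KI, 0.73 in WT) and the aminopeptidase gene Lap3 (0.29 in KI, 0.27 in WT). Ctsl, which encodes cathepsin L, also rose in KI relative to WT Tregs, at 7.77 ± 0.39 in KI Tregs and 6.82 ± 0.17 in WT Tregs (SD, n = 4 each), a difference of 0.94 (limma adjusted p = 0.00412). No opioid receptor gene passed the filter on low values.

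Around Cd83, 13 of 17 genes of the B7 and MHC class II axis were tested. In KI Tregs 6 rose and 1 fell relative to Tconv, and the counts in WT were the same. The costimulatory ligand genes Cd86 (2.02 in KI, 2.27 in WT) and Cd80 (1.76 in KI, 1.52 in WT) were among those that rose, and Ly75 (-0.52 in KI, -0.48 in WT) fell. In KI relative to WT Tregs 2 rose, Pdcd1lg2, which encodes the PD-1 ligand PD-L2 (0.65, limma adjusted p = 0.0337), and Ctla4 (0.64, adjusted p = 0.0358).

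Around Gpr83, 14 of 20 genes of other lymphocyte G protein-coupled receptors were tested. In KI 6 rose and 4 fell in Tregs relative to Tconv, and in WT 6 rose and 2 fell. The homing receptor gene Gpr15 (3.65 in KI, 3.29 in WT), the prostaglandin E receptor gene Ptger2 (3.51 in KI, 3.24 in WT) and Gpr34 (2.63 in KI, 2.00 in WT) rose, while Gpr171 fell (-0.81 in KI, -0.79 in WT). Of the 14, 1 fell in KI relative to WT Tregs, Gpr174 (-0.26, limma adjusted p = 0.0432).

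Around Ecm1, 7 of 16 genes of lymph node egress, matrix and TGF-beta activation were tested. In KI 3 rose and 3 fell in Tregs, and in WT 3 rose and 2 fell. The IL-2 receptor chain gene Il2rb (3.39 in KI, 2.88 in WT), the integrin gene Itgav (1.06 in KI, 0.84 in WT) and Tgfb1 (0.44 in KI, 0.43 in WT) rose. The integrin gene Itgb3 (-2.40 in KI, -2.06 in WT) and Klf2 (-0.48 in KI, -0.39 in WT) fell. None of the 7 passed between KI and WT Tregs by limma, and the lowest p belonged to Itgb3 (-0.34), S1pr1 (-0.55) and Hspg2 (-0.20).

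Around Capg, 12 of 18 genes of the gelsolin family and of actin capping and binding were tested. In both genotypes 3 rose and 2 fell in Tregs. The bundling protein gene Lcp1 rose (0.28 in KI, 0.27 in WT), and the gelsolin gene Gsn (-0.40 in KI, -0.73 in WT) and Svil (-0.43 in KI, -0.36 in WT) fell. The differences of Gsn and Capg thus had opposite signs. Of these genes 2 rose in KI relative to WT Tregs, Gsn (0.45, limma adjusted p = 0.00712) and Coro1a (0.19, adjusted p = 0.0410), which encodes coronin 1A.

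Around Swap70, 16 of 18 genes of its family and of Rac signalling were tested. In KI 8 rose and 0 fell in Tregs, and in WT 9 rose and 0 fell. The Rac exchange factor gene Tiam1 (4.04 in KI, 3.01 in WT) and Irf4 (2.34 in KI, 1.93 in WT), which encodes a transcription factor, rose, while Def6, the closest relative of Swap70, did not pass (-0.04 in KI, -0.09 in WT). Between KI and WT Tregs 1 rose, Irf4 (0.70, limma adjusted p = 0.0432). Between KI and WT Tconv 1 fell, Tiam1 (-0.73, adjusted p = 0.00466).

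The genes with the most similar profiles were found by the root mean square difference of the 16 log2 values, each profile centred on its own mean. The closest to Plagl1 were Dusp4 (0.41), a phosphatase gene, and Ctla4 (0.42). Those closest to Penk were Ikzf4 (0.44) and Gbp2b (0.45), and those closest to Cd83 were Sh3bgrl2 (0.31) and the costimulatory receptor gene Tnfrsf4 (0.37). Capg was closest to Tnfrsf4 (0.22) and to the syndecan gene Sdc4 (0.23). Ecm1 was closest to the kinase gene Map3k8 (0.19) and to Tmem158 (0.19). Swap70 was closest to the myosin gene Myo1e (0.19) and to the annexin gene Anxa4 (0.21). The median distance of a tested gene from a member ran from 1.20 for Ecm1 to 2.50 for Plagl1. No member was among the closest genes of another. This distance depends largely on the size of the Treg minus Tconv difference, on which the members were picked, so closeness largely restates the pick. Sdc4 also rose in KI relative to WT Tregs, by 0.61 (limma adjusted p = 0.0222).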

How the data were processed

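RNA of sorted cells was measured on 16 Affymetrix arrays, 1 a sample. The authors deposited log2 values per probe set, made with RMA in Partek 6.5, per the submitters' processing notes. Medians of the arrays lay between 3.69 and 3.76, so no further normalisation was applied. Probe sets were named through the platform annotation. Of 45141, 28898 had 1 gene, 551 several, 15588 none, and 104 were controls. Of those with 1 gene, 28689 were updated by Entrez identifier and 152 by symbol in the RefSeq gene table, and 57 kept the name given. The set with the highest mean over the 16 arrays stood for each of 17097 genes. Genes above 5 (log2) on at least 4 arrays were kept, 8139 in all.

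Groups were taken from the labels, and replicates were numbered in order of deposit, which pairs none of them. Genotypes were compared in limma 3.58.1 (R 4.3.3), with 1 mean per group, a variance trend, all 16 arrays in 1 fit, two-sided tests and Benjamini-Hochberg adjustment over the 8139 genes. Calls were made at an adjusted p under 0.05, and the fit was tested on simulated data. The genes named were the members, their 2 nearest profiles, Foxp3, and from each related list those called between KI and WT Tregs, or else up to 3 with the lowest p. Other genes named were chosen after their values were seen. The members and lists were chosen with earlier results of these data known. Alternatives changed the filter, the probe set, the variance model, array weights, blocks of array numbers, the normalisation, the samples in the fit and each array in turn. Gpr83 was not analysed here.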

Additional observations from a re-analysis of the deposited data

Results flagged for a closer look

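Of 200 groups of 4 arrays examined for the genes named, 5 held an array far from the other 3, where chance alone gives about 1 in 20. None was a value of Plagl1, Penk, Cd83, Capg, Ecm1 or Swap70. Ctla4 read 5.67 in KI Tconv 4, against 6.52 to 6.68 in the other KI Tconv. Ctla4 also read 6.81 in WT Tconv 4, against 6.45 to 6.49 in the other WT Tconv. Gsn read 8.27 in KI Tconv 4, against 8.44 to 8.47 in the others of its group. Ikzf2 read 8.91 in WT Tconv 3 and 9.06 in each of the others. Itgav read 8.51 in WT Tconv 1, against 8.67 to 8.70 in the others.

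The KI minus WT difference in Tregs lay above that in Tconv, by the test of the difference, for 3 of the genes named, none of them among the 6. Over all 8139 tested genes 64 (0.786%) were called in this contrast. Tiam1, Nrp1 and Ikzf2 were named after their values were seen, so the count of 3 is not read as a result. The difference between cell types was 1.03 for Tiam1 (SE 0.157, limma adjusted p = 0.00258), 0.82 for Nrp1 (SE 0.176, adjusted p = 0.0331) and 0.75 for Ikzf2 (SE 0.102, adjusted p = 0.00139). In each of them the KI minus WT difference was negative and passed the test in Tconv, and did not pass it in Tregs.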

How the results depend on the processing

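Of 732 alternative values of single members, 684 kept direction and side of the threshold (or moved by less than 1 SD). Another 22 changed sign, 15 moved by more, 9 newly passed and 2 no longer passed. The 732 include the Treg minus Tconv differences and the difference between cell types, which use the values of the pick. The total is therefore not read as support for the genotype differences. Values within arrays 24 to 27 were sorted by the size of the move, so changes of sign there are not among the 22. Between KI and WT Tregs, Capg passed in 25 of 27 alternatives with a test. Genes called there were 231, against 1715 with array weights and 410 without arrays 24 to 27 (chosen after seeing the data). With the 3 sets of array numbers as a block 29 were called, a fit in which only arrays 24 to 27 link the 2 genotypes. Leaving out 1 array gave 90 (without KI Treg 1) to 558 (without KI Treg 4). The members called, 1 of 6, became 0 with that block, 2 without arrays 24 to 27 and 0 to 2 with 1 array left out. Between KI and WT Tconv, 11 genes were called, against 249 with weights, 5 with the block of 3 sets, 105 without arrays 24 to 27, 4 with only the groups compared, 20 over every probe set and 7 to 65 with 1 array left out. The difference between cell types had 64 calls, 453 with weights and 32 to 104 with 1 array left out. Its members called, 0, became 1 (Capg) with weights, the block of 2 sets, the mean of probe sets and without arrays 24 to 27, and were 0 to 1 with 1 array left out. That difference uses the values of the pick, so nothing is read from its calls of members. The cause of these moves was not tested.

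Signs turned only in differences that did not pass. In Tregs, the block of 3 sets gave -0.0097 for Plagl1 and -0.17 for Ecm1, and the other Plagl1 probe set gave -0.049. In Tconv, that block gave -0.10 for Ecm1, and Swap70 was -0.11 in its other probe set and -0.0035 without arrays 24 to 27. In the difference between cell types, Swap70 was 0.15 in its other probe set, 0.049 by the mean of its sets and 0.18 without arrays 24 to 27. With 1 array left out, Ecm1 ranged from -0.065 to 0.15 and Swap70 from -0.019 to 0.20 in Tregs, and Cd83 from -0.33 to 0.10 in Tconv. In the difference between cell types, Cd83 ranged from -0.23 to 0.20, Swap70 from -0.18 to 0.074 and Ecm1 from -0.19 to 0.031. Within arrays 24 to 27, with 1 array a group and no test, signs also turned. In Tregs this held for Plagl1, Cd83, Ecm1 and Swap70, and in Tconv for Ecm1 (-0.20). The difference between cell types there was 0.30 for Cd83 and 0.13 for Ecm1. No paired analysis was possible because the labels give the groups no shared replicate numbers. Values near background may limit the size of the Plagl1, Penk and Capg differences from Tconv.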
